A study of Mus musculus with 8 samples.

Results

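The reads of 10 mast cell genes were followed through sorted mouse intestinal epithelium, out of 23366 gene symbols in the deposited count tables. The genes are the chymase family genes Mcpt1, Mcpt2, Mcpt4 and Cma2, the carboxypeptidase gene Cpa3, the receptor genes Kit, Ms4a2, Fcer1a and Il1rl1, and the transcription factor gene Gata2. The members were chosen by their read levels in these same libraries, after an earlier look had found mast cell genes high in 1 crypt-enriched library. Member levels in the 4 groups are therefore given as a description with no test. The comparison asked of the series is what loss of the transcription factor gene Sox4 in gut epithelium does to crypt and villus cells.

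There were 4 groups of 2 libraries each. Sox4cKO animals carried Sox4fl/fl, Sox4 alleles flanked by loxP sites, together with villin-Cre (vilCre+/-). Control animals carried Sox4fl/fl without Cre, so both genotypes hold the floxed alleles. All were male littermates aged 6 weeks, with 2 animals per genotype. From each animal, cells positive for CD326, the epithelial surface protein encoded by Epcam, were sorted at 50000 cells per library. Cells with CD44 on their surface, which crypts are rich in, make up the CD44plus libraries, and cells without it, mostly from villi, the CD44minus libraries. The villin promoter drives Cre in the intestinal epithelium, not in the bone marrow lineage that mast cells come from. Values of a group are given in the order replicate 1 and replicate 2, and levels are in CPM, counts relative to a fixed total of gene counts, scaled between libraries with edgeR's TMM factors (trimmed mean of M values).

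Mast cells are tissue leukocytes that arise from bone marrow progenitors, mature under KIT signalling and store proteases on proteoglycan in their granules. Antigen that binds IgE on the high-affinity receptor makes them release granules and lipid mediators. In mice, mucosal mast cells lie within the gut epithelium and the lamina propria beneath it and are known for the chymases of Mcpt1 and Mcpt2. Connective tissue mast cells of the mouse are known instead for the chymase of Mcpt4, the chymase of Cma1 and the tryptases of Tpsb2 and Tpsab1. Numbers of mucosal mast cells in mouse gut depend on T cells and type 2 cytokines and increase in worm infection.

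On the GENCODE annotation of GRCm38 (mm10), Mcpt1, Mcpt2, Mcpt4 and Cma2 lie within 111 kb of chromosome 14, from 55950980 to 56062313, with 9 annotated genes in that span or reaching into it. Mcpt1 spans 56017971 to 56020384 on the plus strand and Mcpt2 spans 56042041 to 56044642 on the plus strand. Mcpt4 spans 56059629 to 56062313 on the minus strand and Cma2 spans 55950980 to 55974031 on the plus strand. The other members are spread over the genome. Cpa3 lies on chromosome 3 (20215620 to 20242181, minus strand), Kit on chromosome 5 (75574916 to 75656722, plus strand) and Gata2 on chromosome 6 (88193891 to 88207032, plus strand). Ms4a2 lies on chromosome 19 (11615523 to 11623719, minus strand). Fcer1a (173221284 to 173227214, minus strand) and Il1rl1 (40429570 to 40465415, plus strand) both lie on chromosome 1. Counts were made over the exons of these genes, as far as a gene-level table shows.

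Promoter windows of 4 members on chromosomes 14, 3 and 19 are shown because GATA factors, Gata2 among them, are known regulators of mast cell genes. Mcpt1 and Mcpt4 lie on the same stretch of chromosome 14, with Mcpt9 and Mcpt2 between them, and their windows have much sequence in common. The windows are RefSeq sequences on GRCm38.p6 that run from 250 bases before to 50 bases after a gene's start, written 5′ to 3′ on the strand of the gene. Capitals mark the core letters that GATA factors are known to bind. These were searched as AGATAA, also as TGATAA, also as AGATAG and also as TGATAG, on both strands, so that AGATAA on the other strand reads as TTATCT here. No match overlaps another. The Mcpt1 window is chr14:56017714-56018013 on the plus strand, and the Mcpt4 window is chr14:56062261-56062560 on the minus strand. The Cpa3 window is chr3:20242132-20242431 and the Ms4a2 window chr19:11623670-11623969, both on the minus strand.
Mcpt1: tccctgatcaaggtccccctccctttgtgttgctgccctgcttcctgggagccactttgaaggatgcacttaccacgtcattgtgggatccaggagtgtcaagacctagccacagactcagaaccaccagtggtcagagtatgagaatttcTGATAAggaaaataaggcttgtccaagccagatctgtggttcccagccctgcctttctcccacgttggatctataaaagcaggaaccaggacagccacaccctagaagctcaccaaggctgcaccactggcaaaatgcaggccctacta
Mcpt4: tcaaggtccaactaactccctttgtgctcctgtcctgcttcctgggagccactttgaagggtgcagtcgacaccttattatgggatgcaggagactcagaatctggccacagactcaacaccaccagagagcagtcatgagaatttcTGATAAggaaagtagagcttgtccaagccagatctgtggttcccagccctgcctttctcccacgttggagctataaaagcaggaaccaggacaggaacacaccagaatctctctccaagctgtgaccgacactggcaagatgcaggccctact
Cpa3: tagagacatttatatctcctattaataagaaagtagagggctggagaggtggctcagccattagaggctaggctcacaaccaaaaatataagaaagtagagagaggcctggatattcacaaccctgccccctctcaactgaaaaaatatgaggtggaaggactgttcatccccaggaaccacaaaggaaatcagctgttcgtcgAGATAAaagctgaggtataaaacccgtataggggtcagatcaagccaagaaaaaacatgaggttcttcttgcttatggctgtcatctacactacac
Ms4a2: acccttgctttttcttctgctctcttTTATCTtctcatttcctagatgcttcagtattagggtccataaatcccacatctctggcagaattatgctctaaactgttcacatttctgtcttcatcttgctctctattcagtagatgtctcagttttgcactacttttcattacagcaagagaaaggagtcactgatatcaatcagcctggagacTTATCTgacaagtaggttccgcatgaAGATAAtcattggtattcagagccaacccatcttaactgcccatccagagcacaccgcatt

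TGATAA stands 99 bases before the start in the Mcpt1 window and 103 bases before it in the Mcpt4 window. These windows were 85.6% identical over 291 aligned bases and shared an unbroken run of 53 bases. AGATAA stands 46 bases before the start of Cpa3. The Ms4a2 window holds 3 matches, at 224, 37 and 11 bases before the start. Windows were listed for 8 of the 10 genes, with 11 windows in all, of which 7 held at least 1 match. Fcer1a and Il1rl1 held matches as well, whereas the windows of Kit and Gata2 held none. Of all 32851 windows in the table, 29.8% held at least 1 match, so a match is common, and it marks letters and not a binding site.

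The gene deleted in the series followed the labels. Sox4 was at 17.8 and 25.7 CPM in Sox4cKO CD44plus, against 128 and 120.1 CPM in control CD44plus. In CD44minus it gave 4 and 1 reads in Sox4cKO and 10 and 21 reads in control. In CD44plus the edgeR log2 fold change was -2.51 (SE 0.61).

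Depth and background differed between libraries. Gene counts were 7679575 and 13238050 in Sox4cKO CD44plus, 12249272 and 6007554 in control CD44plus, 1175251 and 6963345 in Sox4cKO CD44minus and 886194 and 2327002 in control CD44minus. Of the uniquely placed reads, between 64.6% (Sox4cKO CD44plus replicate 2) and 96.6% (Sox4cKO CD44minus replicate 1) fell in no counted gene. As background, reads were summed over 1456 symbols of smell and pheromone receptor genes, which act in the nose and not in gut. They took 362 and 70.3 CPM of gene counts (here without TMM factors) in Sox4cKO CD44plus and 292 and 273 CPM in control CD44plus. In CD44minus they took 4144 and 186 CPM in Sox4cKO and 3656 and 1368 CPM in control. Sox4cKO CD44plus replicate 2 thus had the lowest background and the most gene counts of the 8 libraries, and it is also the library in which the mast cell genes were highest. The part of depth and background in that pattern was not tested.

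In the crypt-enriched gate, Sox4cKO replicate 2 carried the highest level of all 10 mast cell genes, between 2.87-fold (Kit) and 7.21-fold (Fcer1a) above Sox4cKO replicate 1, with a median of 4.44-fold. The other 3 CD44plus libraries lay much closer together. Sox4cKO replicate 1 was at 0.911 to 1.91 times the mean of the control libraries, with a median of 1.34. Control replicate 2 was above control replicate 1 for each gene, by a median of 1.70 times. The Sox4cKO animals therefore did not share the high level, and a group mean of Sox4cKO rests mostly on 1 library.

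Mcpt1 and Mcpt2, the chymases of mucosal mast cells, were by far the most abundant members. Mcpt1 was at 2217 and 10910.3 CPM in Sox4cKO CD44plus (15336 and 115168 reads), against 1094 and 1889 CPM in control CD44plus (12249 and 10345 reads). Mcpt2 was at 1024 and 5242 CPM in Sox4cKO and 473 and 797 CPM in control. Both Sox4cKO libraries lay above both control libraries for each gene, but Sox4cKO replicate 1 was much nearer to control replicate 2 than to the other Sox4cKO library. By mean, Mcpt1 was at 6564 ± 6147 CPM in Sox4cKO and 1492 ± 562 CPM in control (SD, n = 2 each). The log2 fold change of Mcpt1 was 2.14 (SE 1.31) with all 8 libraries and 0.57 without Sox4cKO CD44plus replicate 2, and that of Mcpt2 was 2.30 (SE 1.17) and 0.69 on the same terms.

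Mcpt1 was among the most abundant transcripts of the crypt-enriched gate in every animal. It took 0.200% and 0.870% of gene counts in Sox4cKO CD44plus and 0.100% and 0.172% in control CD44plus. Among all gene symbols this put Mcpt1 at rank 16 and rank 3 in Sox4cKO and at rank 51 and rank 21 in control. All 10 members together took 0.341% and 1.45% of gene counts in Sox4cKO CD44plus, and 0.180% and 0.297% in control CD44plus. Mast cell transcripts were therefore read in every sorted crypt fraction, those of control animals included. In bulk libraries such as these, more mast cells and more RNA per mast cell cannot be told apart.

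The chymases Mcpt4 and Cma2 and the carboxypeptidase Cpa3 were read at lower levels with the same order of libraries. Mcpt4, known from connective tissue mast cells, was at 10.3 and 60.3 CPM in Sox4cKO CD44plus, against 6.97 and 8.22 CPM in control CD44plus. Cma2 was at 47.7 and 212 CPM in Sox4cKO and 24.2 and 25.7 CPM in control. Cpa3, the granule carboxypeptidase of most mast cells, was at 94.0 and 408 CPM in Sox4cKO and 47.5 and 92.9 CPM in control. For Mcpt4 and Cma2 the control libraries lay close together, whereas Cpa3 of control replicate 2 lay just under Sox4cKO replicate 1. Cma2 had the highest ratio of Sox4cKO replicate 1 to the control mean, 1.91. Its log2 fold change was 2.38 (SE 0.67), and 0.93 without Sox4cKO CD44plus replicate 2.

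Sequence shared between chymase genes limits what can be said of Cma2. Of the 50-base stretches of its transcripts, 39.8% also occur in transcripts of another gene, mainly Mcpt9 and Mcpt4, and reads placed at more than 1 site are in no gene's count. For Mcpt4 this share was 5.48%, and for Mcpt1 and Mcpt2 it was 0%. Mcpt1 and Mcpt2 reads are thus not exchanged with each other over stretches of that length. Cma2 also shares 48 exon bases with the pseudogene Mcpt-ps1 on the opposite strand, and whether counting used the strand is not given in the sources used here.

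**Figure D1:**
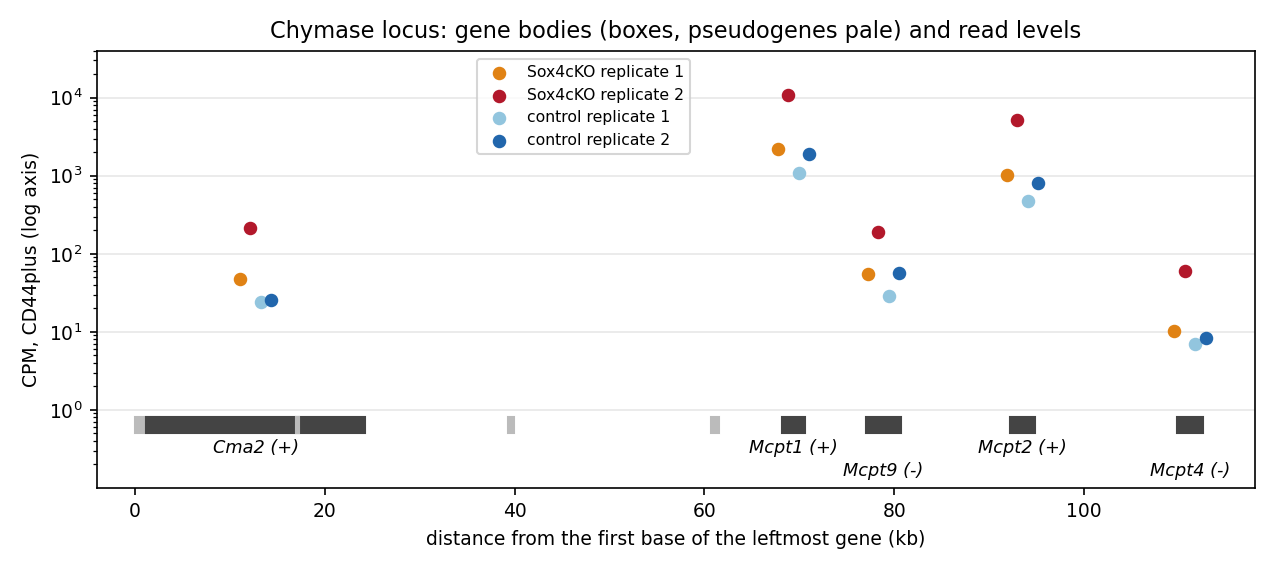
Chymase genes of chromosome 14 in the CD44plus gate. The horizontal axis is the distance in kb from the first base of the leftmost gene, boxes are gene bodies with their strand (pseudogenes pale and unnamed), and points are CPM of each library on a log axis. Mcpt1 and Mcpt2 lie far above Cma2, Mcpt9 and Mcpt4, and Sox4cKO replicate 2 is the highest point over each gene.

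The receptor genes were high in the same library but were less uniform. Kit, the receptor for stem cell factor that mast cells need to live, was at 247 and 709 CPM in Sox4cKO CD44plus, against 237 and 305 CPM in control CD44plus. Ms4a2, the beta chain of the high-affinity IgE receptor, was at 52.6 and 227 CPM in Sox4cKO and 32.1 and 40.0 CPM in control. Fcer1a, the alpha chain that binds IgE, was at 4.34 and 31.3 CPM in Sox4cKO (30 and 330 reads) and 2.95 and 6.39 CPM in control (33 and 35 reads). For Ms4a2 both Sox4cKO libraries lay above both control libraries, whereas for Kit and Fcer1a Sox4cKO replicate 1 lay between the control libraries. Without Sox4cKO CD44plus replicate 2 the log2 fold changes of Kit and Fcer1a turned negative, to -0.13 and -0.098, against 0.82 (SE 0.80) and 1.94 (SE 1.14) with all 8 libraries.

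Il1rl1, which encodes the ST2 receptor for interleukin 33 and is also known from type 2 innate lymphoid cells, was at 47.0 and 168 CPM in Sox4cKO CD44plus. In control CD44plus it was at 28.4 and 48.9 CPM. Gata2, a transcription factor that mast cell progenitors and mast cells need, was at 36.3 and 161 CPM in Sox4cKO and 22.7 and 45.8 CPM in control. For both genes Sox4cKO replicate 1 was below control replicate 2 and above control replicate 1, so that only replicate 2 of Sox4cKO stood outside the control values. Their log2 fold changes were 1.48 (SE 0.90) for Il1rl1 and 1.53 (SE 0.81) for Gata2, and 0.28 and 0.087 without that replicate.

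**Figure D2:**
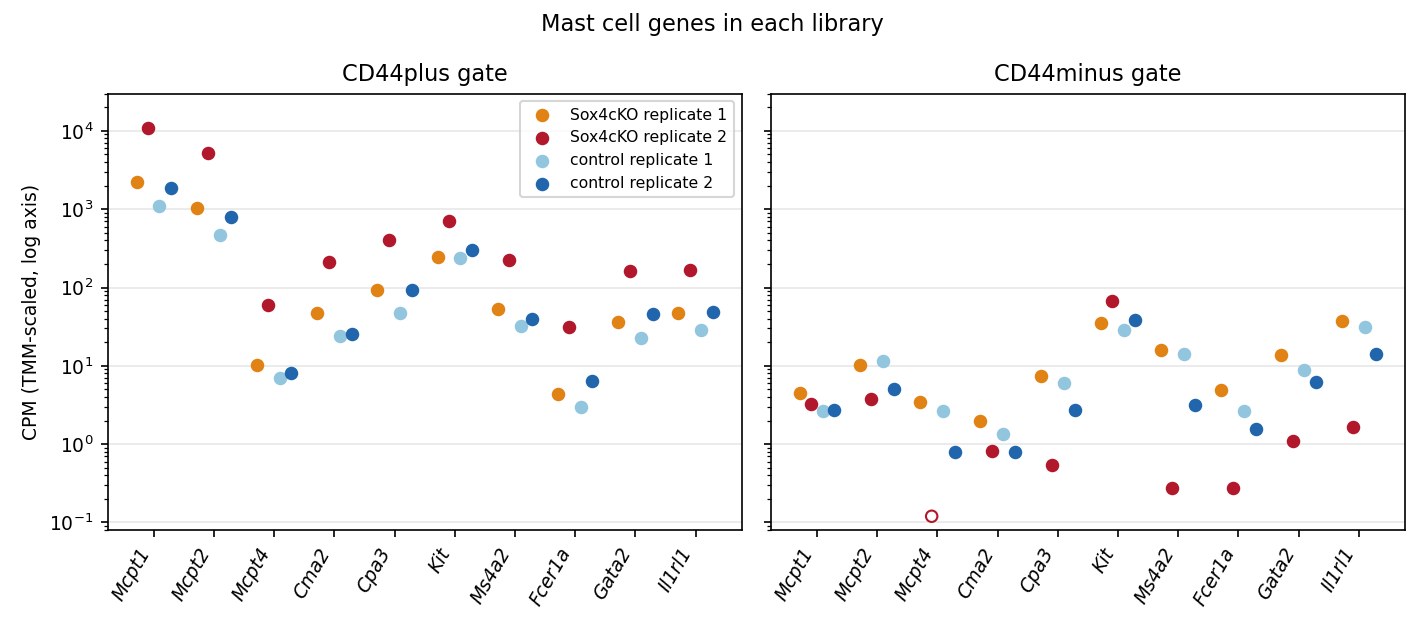
Level of each mast cell gene in every library, in TMM-scaled CPM on a log axis, with the CD44plus gate at left and the CD44minus gate at right. Points are single libraries, and the open point at the bottom stands for Mcpt4 with 0 reads in Sox4cKO CD44minus replicate 2. In CD44plus, Sox4cKO replicate 2 is the highest point for all 10 genes, and in CD44minus no gene but Kit exceeds 40 CPM in any library.

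Per length of the longest coding transcript, Mcpt1 and Mcpt2 were also the highest members in each CD44plus library. Mcpt1 was at 2186 and 10759.7 CPM per kb in Sox4cKO and 1079 and 1863 CPM per kb in control, and Mcpt2 followed at 965 and 4941 against 446 and 751 CPM per kb. Next came Cma2, Cpa3 and Kit, which lay within 25.6 to 64.8 CPM per kb in the 3 libraries other than Sox4cKO replicate 2. Their order changed between libraries, so these neighbours do not differ beyond the spread of the libraries. Fcer1a was lowest in each of the 4 libraries, at 4.35 and 31.3 CPM per kb in Sox4cKO and 2.95 and 6.40 CPM per kb in control. Ms4a2, Mcpt4, Gata2 and Il1rl1 lay between these groups.

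Counted over the members, Sox4cKO replicate 2 was the highest of the 4 CD44plus libraries in 10 of 10, where it was highest for 29.5% of all 20427 genes tested. It was over 2 times the next library in 10 of 10, where this held for 2.08% of all genes. Both Sox4cKO libraries were above both control libraries in 6 of 10 (Mcpt1, Mcpt2, Mcpt4, Cma2, Cpa3 and Ms4a2), against 14.2% of all genes. The members were listed from these libraries, so nothing is read from these counts. The median of their log2 fold changes was 1.95 with all 8 libraries (range 0.82 to 2.38, all 10 positive) and 0.43 without Sox4cKO CD44plus replicate 2 (range -0.13 to 0.93, 8 positive). Over all genes tested the median log2 fold change was -0.00052, and 10203 of the 20427 were positive.

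Across the genome, edgeR's quasi-likelihood test called 0 of 20427 genes between Sox4cKO and control in CD44plus at an adjusted p of 0.05, which is 0% of the genes tested. At an unadjusted p under 0.05 there were 128 genes by edgeR (0.627%), and DESeq2 called 0 after adjustment and had 135 at that unadjusted level. A fit of the 4 CD44plus libraries alone called 17 of 17052 genes (0.0997%), all lower in Sox4cKO. The biological coefficient of variation was 0.616 in the fit of all 8 libraries. It covers both gates, so it is not the spread between animals in CD44plus alone. The mast cell genes were chosen by their levels in these libraries, so no test is read for them. Their group differences rest on 2 animals per genotype.

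**Figure D3:**
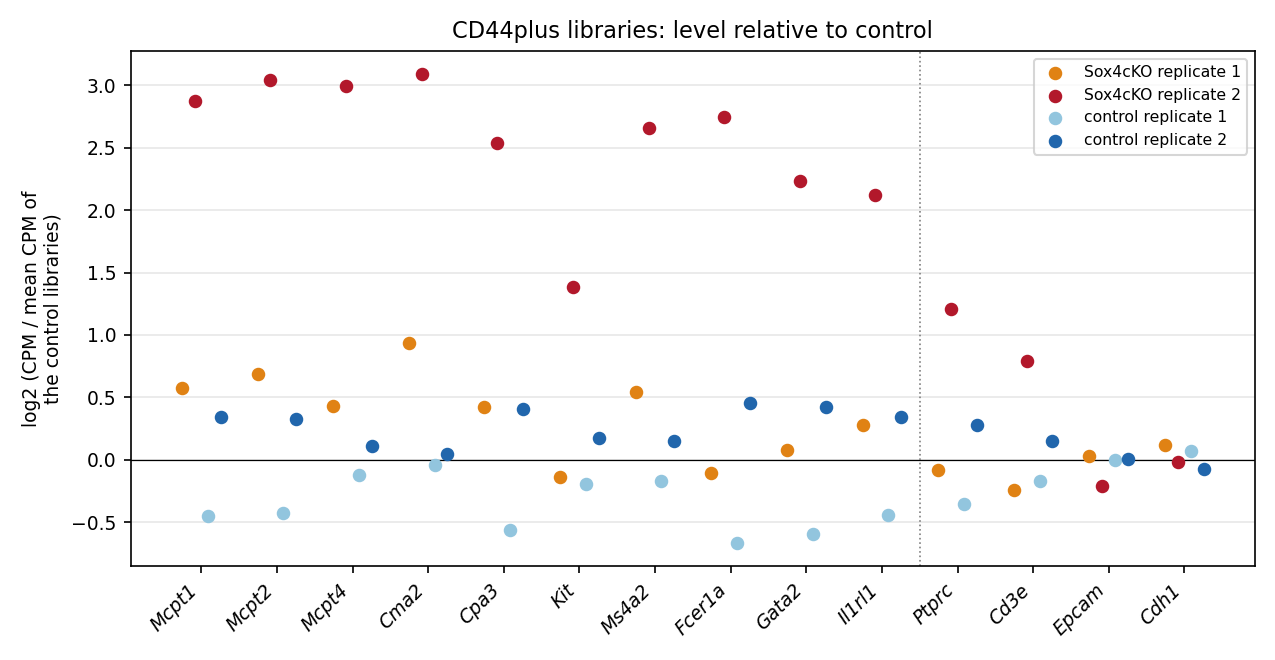
Level of each gene in the CD44plus libraries relative to the mean CPM of the control libraries, on a log2 scale, with 1 point per library. The mast cell genes are left of the dotted line, and the leukocyte genes Ptprc and Cd3e and the epithelial genes Epcam and Cdh1 are right of it. Sox4cKO replicate 2 stands apart for the mast cell genes and less so for Ptprc and Cd3e, while all 4 libraries lie together for Epcam and Cdh1.

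Within each CD44plus library, the mast cell genes kept similar proportions to one another although their levels differed several-fold between libraries. Per 100 reads of Mcpt1 there were 46.2 and 48.0 reads of Mcpt2 in Sox4cKO and 43.2 and 42.2 in control. For Cpa3 there were 4.24 and 3.74 reads in Sox4cKO and 4.34 and 4.92 in control, and for Ms4a2 2.37 and 2.08 in Sox4cKO and 2.93 and 2.12 in control. Kit departed most, with 11.1 and 6.50 reads per 100 Mcpt1 reads in Sox4cKO and 21.7 and 16.2 in control. Gata2 was at 1.64 and 1.48 in Sox4cKO and 2.07 and 2.43 in control, and Il1rl1 at 2.12 and 1.54 in Sox4cKO and 2.60 and 2.59 in control. For Cpa3, Kit, Gata2 and Il1rl1 both Sox4cKO values lay below both control values, and for Mcpt2 both lay above. The share of all genes that part in this way was not counted, so nothing is read from it. These ratios are of reads within 1 library and so are free of the scaling between libraries.

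**Figure D4:**
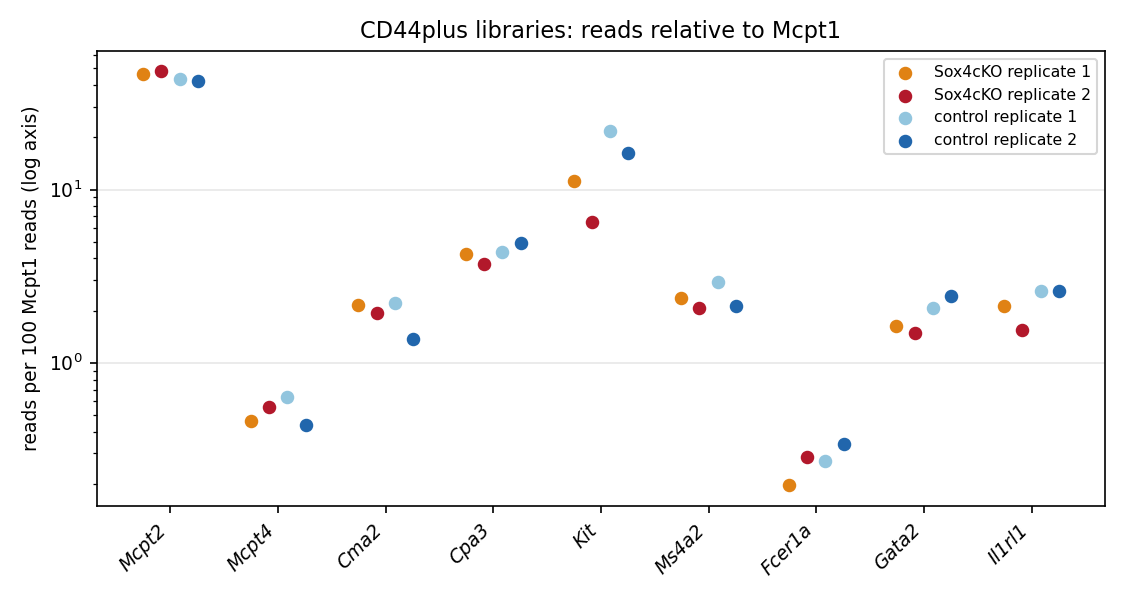
Reads of each other mast cell gene per 100 reads of Mcpt1 in the CD44plus libraries, on a log axis, with 1 point per library. Mcpt2 stays between 42.2 and 48.0 reads in all 4 libraries, and Kit spreads from 6.50 in Sox4cKO replicate 2 to 21.7 in control replicate 1.

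Few reads of these genes came from the villus-enriched gate. Mcpt1 had 9 and 12 reads in Sox4cKO CD44minus and 4 and 7 reads in control CD44minus, and its rank among gene symbols lay between 11995 and 18286. Members together took 0.0233% and 0.00416% of gene counts in Sox4cKO CD44minus and 0.0184% and 0.00829% in control CD44minus. Both gates of a replicate carry 1 animal number in their table names, so the gates can be compared within an animal. Across all genes edgeR called 529 (2.59%) between gates in Sox4cKO and 502 (2.46%) in control, but leaving out 1 library moved these counts to between 11 and 8440 in Sox4cKO and between 0 and 7362 in control, so the members are compared by reads. Mcpt1 was 499-fold and 3338-fold higher in CD44plus than in CD44minus in the Sox4cKO animals and 407-fold and 687-fold higher in the control animals. The exact Poisson 95% intervals on the CD44minus counts put the fold of Sox4cKO replicate 1 between 263 and 1091 and that of replicate 2 between 1911 and 6460.

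Kit differed from the rest in this gate. It was read 72 and 247 times in Sox4cKO CD44minus (35.5 and 67.3 CPM) and 43 and 98 times in control CD44minus (28.9 and 38.5 CPM). Its CD44plus level was 6.95-fold and 10.5-fold higher in the Sox4cKO animals and 8.20-fold and 7.94-fold higher in the control animals, so the gate fold of Kit ran only from 6.95 to 10.5 over the 4 animals. Cpa3 had 15 and 2 reads in Sox4cKO CD44minus and 9 and 7 reads in control CD44minus. It was 12.7-fold and 749-fold higher in CD44plus in the Sox4cKO animals, against 7.86-fold and 33.8-fold in the control animals, and the 749-fold value rests on the 2 reads (interval 207 to 6184). Kit is known in the gut also from secretory epithelial cells at the crypt base and from the pacemaker cells of the muscle layer.

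Cpa3, Mcpt4, Ms4a2, Fcer1a, Gata2 and Il1rl1, 6 of the 10 genes, had the same order of CD44minus libraries by CPM as the background measure. The share of all genes with that order was not counted, so nothing is read from this count. Il1rl1 had 76 and 6 reads in Sox4cKO CD44minus (37.5 and 1.63 CPM) and 46 and 36 reads in control CD44minus (30.9 and 14.1 CPM). Gata2 had 28 and 4 reads in Sox4cKO and 13 and 16 reads in control, and Ms4a2 had 32 and 1 reads in Sox4cKO and 21 and 8 reads in control. In each of the 6 the library with the fewest reads was Sox4cKO replicate 2, whose reads of smell and pheromone receptor genes were at 186 CPM against 1368 to 4144 CPM in the other 3 CD44minus libraries. By CPM Il1rl1 in CD44plus was at 1.25 and 103 times its CD44minus level in the Sox4cKO animals, and at 0.919 and 3.46 times in the control animals. Ms4a2 of Sox4cKO replicate 2 rests on 1 CD44minus read (832-fold, interval 149 to 32872). Mcpt4 had 0 reads there and was at least 73.8-fold higher in CD44plus, taking 3 counts in that library as the floor. The part of background in these CD44minus reads was not tested.

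Other leukocyte genes were also highest in Sox4cKO CD44plus replicate 2. Ptprc, the CD45 gene of all leukocytes, was at 346 and 846 CPM in Sox4cKO CD44plus and 287 and 445 CPM in control CD44plus. Of 13 genes of T cells and intraepithelial lymphocytes, 13 were highest in that library, and their summed level was 2592 and 6254 CPM in Sox4cKO and 2370 and 3840 CPM in control. Of 9 genes of B, plasma and myeloid cells, 9 were highest there, with sums of 384 and 1026 CPM in Sox4cKO and 248 and 432 CPM in control. Over 2 times the next library was reached by 2 of the 13 and 3 of the 9. Over all genes tested, that library was highest for 29.5% and over 2 times the next for 2.08%. Leukocyte genes were thus read in the CD44plus gate of every animal although the sort was on CD326, and their part in the mast cell values was not tested.

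The epithelial list did not have its highest sum in that library. Epcam, the gene of the sorting marker, was at 1401 and 1187 CPM in Sox4cKO CD44plus and 1371 and 1378 CPM in control CD44plus, and the 9 epithelial identity genes summed to 7718 and 6849 CPM in Sox4cKO and 7164 and 6891 CPM in control. Of these 9 genes, 1 was highest in Sox4cKO replicate 2. This was Cd44, the gene of the gate marker, at 203 and 326 CPM in Sox4cKO and 246 and 270.1 CPM in control. Of the 11 genes of crypt secretory cells, 0 were highest in Sox4cKO replicate 2. Of the 9 genes of stroma and endothelium, 2 were highest there, with Pecam1 of endothelium and leukocytes at 49.7 and 165 CPM in Sox4cKO and 22.4 and 53.9 CPM in control. The median ratio of Sox4cKO replicate 2 to replicate 1 was 0.847 for the epithelial list and 0.896 for the secretory list. It was 0.477 for the stromal list, against 0.945 over all genes tested. By sum, however, the stromal list was highest in Sox4cKO replicate 2. Its sums were 191 and 469 CPM in Sox4cKO and 202 and 275 CPM in control.

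Set against Ptprc, the mast cell genes still differed between libraries. The ratio of Mcpt1 to Ptprc was 6.40 and 12.9 in Sox4cKO CD44plus and 3.81 and 4.24 in control CD44plus. The ratio of Kit to Ptprc was 0.714 and 0.838 in Sox4cKO and 0.825 and 0.686 in control, so that the genotypes overlapped. Relative to Ptprc, both Sox4cKO libraries were above both control libraries for 8 of the 10 genes, all but Kit and Fcer1a, against 1.84% of all genes tested. On this scale Sox4cKO replicate 2 was highest for 10 of 10, against 1.37% of all genes tested. Ptprc was itself 1.90 to 2.95 times higher in that library than in the other CD44plus libraries, so dividing by it lowers these shares. Without the division they were 14.2% and 29.5% of all genes tested. The mean ratio in Sox4cKO over that in control ran from 1.03 (Kit) to 2.74 (Cma2), with a median of 2.05. The members' own values chose them, so these ratios remain a description of 4 libraries.

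The label of mucosal mast cells was set against further mast cell genes. Mcpt9, a chymase family gene between Mcpt1 and Mcpt2 on chromosome 14, was at 55.8 and 189.6 CPM in Sox4cKO CD44plus and 28.7 and 55.9 CPM in control CD44plus (log2 fold change 1.54, SE 0.85). Srgn, the proteoglycan core on which granule proteases are stored, was at 92.7 and 259 CPM in Sox4cKO and 55.5 and 131 CPM in control. Fcer1g, the signalling chain of the IgE receptor, was at 36.7 and 106 CPM in Sox4cKO and 16.6 and 41.6 CPM in control. Each was highest in Sox4cKO replicate 2, although many leukocytes express Srgn and Fcer1g. Mcpt9 shares 50-base stretches with the members Cma2 and Mcpt4, and the share of its own transcript was not measured.

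Mcpt4, a member known from connective tissue mast cells, was at 10.3 and 60.3 CPM in Sox4cKO CD44plus and 6.97 and 8.22 CPM in control CD44plus. The 6 further genes given here had few reads, and of these Cma1 was highest in Sox4cKO replicate 2. The tryptase genes Tpsb2 and Tpsab1 had 6 and 1 reads and 3 and 0 reads in Sox4cKO CD44plus, against 12 and 0 reads and 11 and 0 reads in control CD44plus. Mrgprb2, the receptor for basic secretagogues on connective tissue mast cells of the mouse, had 3 and 0 reads in Sox4cKO and 12 and 0 in control, and the related Mrgprb1 had 19 and 1 reads in Sox4cKO and 5 and 3 in control. The chymase Cma1 had 10 and 31 reads in Sox4cKO and 7 and 0 reads in control. Ctsg, a cathepsin of granules, had 12 and 11 reads in Sox4cKO and 25 and 3 in control. The library with 115168 Mcpt1 reads thus held at most 31 reads of any of these 6 genes, but 637 reads of Mcpt4.

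Transcription factor, amine and lipid mediator genes of mast cells were partly high in the same library. Tal1 and Gata1, hematopoietic transcription factors, were at 11.0 and 34.2 CPM and 2.46 and 8.53 CPM in Sox4cKO CD44plus, against 5.45 and 8.22 CPM and 0.268 and 1.83 CPM in control CD44plus. Mitf was at 17.5 and 44.2 CPM in Sox4cKO and 11.0 and 18.6 CPM in control. Slc18a2, the vesicle transporter of amines, was at 13.2 and 41.5 CPM in Sox4cKO and 14.6 and 23.6 CPM in control. Hdc, which makes histamine, was at only 3.47 and 6.73 CPM in Sox4cKO and 2.32 and 3.83 CPM in control.

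Tph1, the serotonin-making enzyme of enterochromaffin cells and of mucosal mast cells in rodents, was at 36.4 and 142 CPM in Sox4cKO CD44plus and 77.3 and 76.1 CPM in control CD44plus. Sox4cKO replicate 1 lay below both control libraries and replicate 2 above both. Lat2, a signalling adaptor, was at 27.8 and 77.4 CPM in Sox4cKO and 22.2 and 36.7 CPM in control, and the granule membrane gene Cd63 at 42.9 and 96.4 CPM in Sox4cKO and 40.2 and 46.2 CPM in control. The prostaglandin D synthase gene Hpgds had 145 and 566 reads in Sox4cKO and 246 and 158 reads in control, and the leukotriene C synthase gene Ltc4s at 3.76 and 8.43 CPM in Sox4cKO and 1.16 and 3.29 CPM in control. Rab27b, Enpp3, Tpsg1 and Adora3 did not have their highest level in Sox4cKO replicate 2. They were at 51.0 and 47.4, 9.40 and 5.87, 11.1 and 7.77, and 2.60 and 2.46 CPM in Sox4cKO, against 47.0 and 47.8, 9.02 and 12.4, 9.11 and 14.8, and 4.02 and 3.47 CPM in control.

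Over the 23 further mast cell genes, 0 passed edgeR's test in either direction and 16 had a positive log2 fold change, with a median of 0.69. In 9 of 23 Sox4cKO replicate 2 was over 2 times the next library, against 2.08% of all genes tested. Of the 23 genes, 6 are also in another list used here. Mcpt1 and Mcpt2 were chosen by their levels and so do not check the mucosal label. Among the further genes, Tpsb2, Tpsab1 and Mrgprb2 were at or near 0 in CD44plus. Cma1 was low, at 1.45 and 2.94 CPM in Sox4cKO and 0.625 and 0 CPM in control. Its log2 fold change of 2.60 (SE 1.80) was the highest of the 23. Mcpt4, a member also known from connective tissue mast cells, was read at 60.3 CPM in Sox4cKO replicate 2.

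Basophils and eosinophils, which share several of these genes, left few reads. The basophil protease genes Mcpt8 and Prss34 had 4 and 24 reads and 8 and 0 reads in Sox4cKO CD44plus, against 7 and 22 reads and 8 and 7 reads in control CD44plus. Cd200r3, known from basophils and mast cells, had 19 and 32 reads in Sox4cKO and 2 and 17 reads in control. Ccr3 and Il3ra were at 7.52 and 3.60 CPM and 7.08 and 8.24 CPM in Sox4cKO, against 1.97 and 3.65 CPM and 2.41 and 6.39 CPM in control. The exception was Itga2b, the platelet integrin alpha chain that is also listed for basophils, with 332 and 1924 reads in Sox4cKO and 280 and 231 reads in control (log2 fold change 1.78, SE 0.67). Of these 6 genes 0 passed the test, 4 had a positive fold change and the median was 0.83.

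The eosinophil granule genes Epx and Prg2 had 32 and 3 reads and 7 and 21 reads in Sox4cKO CD44plus, against 57 and 19 reads and 20 and 6 reads in control CD44plus. Il5ra, the interleukin 5 receptor, had 22 and 16 reads in Sox4cKO and 19 and 17 in control. The eosinophil ribonuclease gene Ear2 had 2 and 1 reads in Sox4cKO and 0 and 2 in control. The 6 eosinophil genes in the tables summed to 9.69 and 3.88 CPM in Sox4cKO and 9.47 and 8.40 CPM in control. Of the 4 that were tested 0 passed, 2 had a positive fold change and the median was 0.014. Their sum was thus lowest in Sox4cKO replicate 2, where the background reads of smell and pheromone receptor genes were lowest too. Those were at 362 and 70.3 CPM in Sox4cKO and 292 and 273 CPM in control. The part of background in the eosinophil sums was not tested.

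Genes that act after the IgE receptor were measured as a list of 14. All 14 had a positive log2 fold change (median 0.73) and all 14 were highest in Sox4cKO replicate 2, where 10203 of 20427 genes tested were positive and 29.5% were highest there. None of the 14 passed the test, as none of the 20427 did (0 by edgeR and 0 by DESeq2). Btk, a kinase of that pathway, was at 12.1 and 22.3 CPM in Sox4cKO CD44plus and 4.64 and 7.12 CPM in control CD44plus. Gab2, a scaffold of the pathway, was at 55.2 and 62.1 CPM in Sox4cKO and 53.8 and 48.8 CPM in control. Most of these genes act in other leukocytes as well. Of 11 granule handling genes, 11 had a positive fold change, with a median of 0.38 and 0 past the test.

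Genes of mast cell growth and homing numbered 20, of which 14 had a positive log2 fold change (median 0.49) and 0 passed the test. Csf2rb2, the beta chain of the mouse receptor for interleukin 3, was at 57.1 and 215 CPM in Sox4cKO CD44plus and 33.8 and 51.1 CPM in control CD44plus. Itgb7 and Itgae encode the integrin pair that holds mucosal mast cells and intraepithelial lymphocytes to epithelium. Itgae was at 339 and 1044 CPM in Sox4cKO and 277 and 396 CPM in control, and Itgb7 at 74.0 and 181 CPM in Sox4cKO and 53.0 and 79.2 CPM in control. Tgfb1, whose product induces Mcpt1 in cultured mouse mast cells, was at 41.5 and 104 CPM in Sox4cKO and 26.0 and 40.2 CPM in control.

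The cytokine genes that epithelium makes to draw or feed mast cells were not high in the same library. Kitl, the stem cell factor gene, was at 84.1 and 51.1 CPM in Sox4cKO CD44plus and 86.5 and 65.9 CPM in control CD44plus, so Sox4cKO replicate 2 was the lowest of the 4. Il33 had 15 and 5 reads in Sox4cKO and 41 and 11 reads in control. Tslp had 2 and 0 reads in Sox4cKO and 9 and 2 reads in control, and Il25 had 6 and 0 reads in Sox4cKO and 12 and 2 reads in control.

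Type 2 cytokine genes had few reads except Il4. It had 14 and 114 reads in Sox4cKO CD44plus, against 9 and 12 reads in control CD44plus. By CPM, Il4 was at 2.02 and 10.8 in Sox4cKO and 0.804 and 2.19 in control. Il13 had 7 and 23 reads in Sox4cKO and 2 and 1 reads in control, Il5 had 5 and 0 reads in Sox4cKO and 10 and 2 reads in control, and Il9 had 4 and 1 reads in Sox4cKO and 0 reads in each control. Mast cells, basophils and type 2 lymphocytes can all make interleukins 4 and 13. Type 2 lymphoid cells were represented by 11 tested genes, of which 10 were positive by log2 fold change (median 0.93) and 0 passed the test.

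Genes outside the list were ranked by how closely their library profile followed the members' median profile. The measure was the root mean square distance between log2(CPM + 0.5) values, each centred on its mean over the 4 CD44plus libraries, among 11875 genes with a mean of at least 5 CPM. The members' median profile was -0.29 and 1.94 in Sox4cKO and -1.08 and -0.39 in control. Nearest was Alox5, the 5-lipoxygenase that starts leukotriene synthesis, at a distance of 0.116, with 24.0 and 107 CPM in Sox4cKO and 13.0 and 25.2 CPM in control. Alox5ap, the fifth nearest, which presents the substrate to that enzyme, was at a distance of 0.153, with 28.8 and 120.4 CPM in Sox4cKO and 16.6 and 31.4 CPM in control.

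Between Alox5 and Alox5ap came Itga2b (0.123), the chymase locus pseudogene Mcpt-ps1 (0.144) and Csf2rb2 (0.149). The others of the 12 nearest were Gp1ba (0.167), a platelet receptor chain, Angpt1 (0.189), a ligand of the endothelial TIE2 receptor, Plekho2 (0.192), Ier3 (0.202), Cd34 (0.206), a surface protein of progenitors, endothelium and mouse mast cells, Padi2 (0.208), a peptidylarginine deiminase, and Rnase6 (0.210). Members themselves were between 0.115 (Cpa3) and 0.539 (Kit) from their own median, and 20 other genes lay within 0.25. The 4 points of a profile share library, depth and background, and the likeness says nothing of shared function or control.

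**Figure D5:**
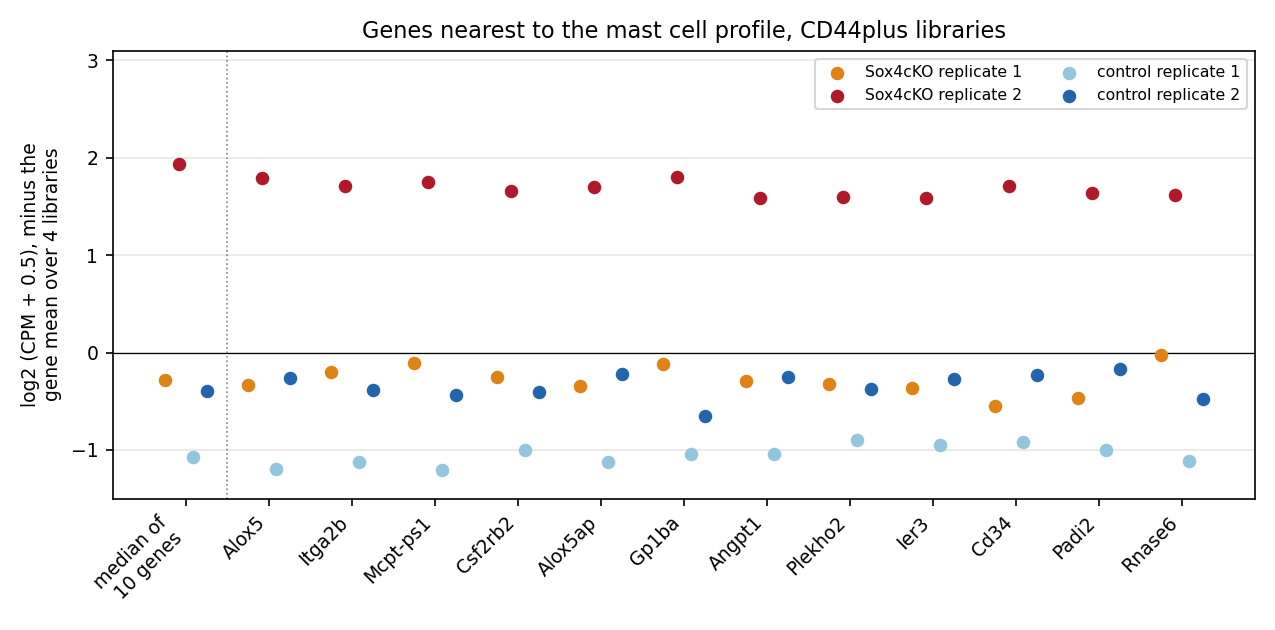
Library profiles of the 12 genes nearest to the median profile of the 10 mast cell genes, which is left of the dotted line. Points are log2(CPM + 0.5) of each CD44plus library minus the gene's mean over the 4 libraries. All show Sox4cKO replicate 2 high and control replicate 1 low, with Sox4cKO replicate 1 and control replicate 2 between.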

How the data were processed

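Per the labels' protocols, total RNA of sorted cells was made into libraries with a strand-marking kit for low input. The deposited tables hold raw counts per gene symbol, 1 table per library, and the tools listed by the submitters' processing notes are HTSeq 0.6.1p1, STAR 2.2.5b (build mm10), bcl2fastq 2.17.4 and Trimmomatic 0.36, without settings. HTSeq's summary lines were left out of library sizes, and the share in no gene was 64.6% to 96.6% of uniquely placed reads.

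Groups came from the sample labels. The 4 groups were fitted in all 8 libraries with edgeR 4.0.16 (quasi-likelihood, R 4.3.3, limma 3.58.1) after filterByExpr with a minimum count of 10 and TMM scaling, which left 20427 genes and all 10 mast cell genes. Adjusted p-values are Benjamini-Hochberg over those genes, with a threshold of 0.05. TMM factors were 0.901 and 0.797 in Sox4cKO CD44plus, 0.914 and 0.912 in control CD44plus, 1.72 and 0.527 in Sox4cKO CD44minus and 1.68 and 1.09 in control CD44minus. With 0 reads, 3 counts is the upper limit taken, between 0.284 CPM (Sox4cKO CD44plus replicate 2) and 2.02 CPM (control CD44minus replicate 1). Intervals and floors cover counting error only, since the reads carry no molecular identifiers. Counts of replicates differed by 8.40 to 63.2 times the Poisson variance.

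The members and the gene lists were chosen with earlier results of these data known. Text names the members, every tested gene of the further mast cell, basophil and eosinophil lists, up to 2 genes with the highest and 2 with the lowest fold change of the other lists, and the 12 nearest profiles. Ptprc, Epcam, Pecam1, Itgae, Itgb7, Tgfb1, Kitl, Il25 and the interleukin genes were named for their roles after their values were seen. Alternatives were DESeq2 1.42.0, other scalings, no filter, the CD44plus libraries alone, replicate blocks and leaving out each library. Both gates of a replicate come from 1 animal by the animal number in the table names, and their deviations from the group means correlated across genes at 0.526 in Sox4cKO and 0.103 in control. Of 23366 symbols, 21732 matched GENCODE by symbol and 1273 by a RefSeq synonym. Code was tested on simulated data.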

Additional observations from a re-analysis of the deposited data

How the results depend on the processing

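The log2 fold changes of the 10 genes (Sox4cKO against control, CD44plus) were recomputed under 16 settings. Of the 160 values, 158 were positive. The exceptions were Kit (-0.13) and Fcer1a (-0.098) without Sox4cKO CD44plus replicate 2. All settings reuse the same libraries, by whose levels the genes were chosen, so nothing is read from this count. Leaving out 1 library gave -0.13 to 1.29 for Kit and -0.098 to 2.66 for Fcer1a. The median was 1.95 with all libraries. It was 0.43 without Sox4cKO replicate 2, 2.61 without Sox4cKO replicate 1, 1.64 without control replicate 1 and 2.37 without control replicate 2, all of CD44plus.

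Between Sox4cKO and control in CD44plus, 0 genes were called by edgeR (128 at an unadjusted p under 0.05) and 0 by DESeq2. The 4 CD44plus libraries alone gave 17 of 17052 genes (0.0997%), all lower in Sox4cKO. Leaving out 1 library at a time gave 0 to 24, with 24 without Sox4cKO CD44minus replicate 1 and 4 without Sox4cKO CD44minus replicate 2. The replicate number, which Sox4cKO and control share only as a number (deviations correlated at 0.275), gave 1 call as a replicate block.

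Calls between gates rest on few libraries, so the report compares gates by reads. For CD44plus against CD44minus in Sox4cKO, 529 genes (2.59%) were called, 339 of them higher. Library totals alone gave 2039, no filter 884 and DESeq2 1765 (720 higher). The animal as replicate block gave 1712 (807 higher), and leaving out 1 library gave 11 (without Sox4cKO CD44plus replicate 2) to 8440 (without Sox4cKO CD44minus replicate 2). In control, 502 (2.46%) were called, 411 of them higher. Library totals alone gave 2091, no filter 994, DESeq2 2199 (1138 higher) and the animal as replicate block 3659 (1506 higher). Leaving out 1 library gave 0 (without control CD44minus replicate 2) to 7362 (without Sox4cKO CD44minus replicate 1). RLE factors gave 641 in Sox4cKO (329 higher) and 560 in control (384 higher). The causes were not tested.

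Of the 12 genes nearest by profile over 4 libraries, 0 were among the 12 nearest by Pearson correlation over 8 libraries. With 2 animals per genotype and CD44minus reads of most members under 50, these data describe single libraries.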
